A study of Rattus norvegicus with 8 samples.

Results

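The genes of the insulin-like growth factor (IGF) system, with the imprinted RNA gene H19, were examined in adrenal glands of neonatal rats. The members were chosen by gene symbol: the ligand genes Igf1 and Igf2, the receptor genes Igf1r and Igf2r, the binding protein genes Igfbp2, Igfbp3, Igfbp4, Igfbp5 and Igfbp6, and H19. They are 10 of the 10411 genes named on the array, and 19 of its 15866 probe sets carry one of their symbols alone. The hypoxic group was kept with the dams at 12% O2 from birth to postnatal day 7, and the normoxic group was kept in room air with dams fed ad libitum. Glands were decapsulated and pooled by 24, and each of the 4 hypoxic and 4 normoxic pools was read on its own array. Strain and sex of the pups, and the way litters were spread over pools, are not given in the sources used here. P-values set the difference between groups against the spread between these pools, not between single animals. Their precision is limited by there being 4 arrays in each group.

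IGF1 and IGF2 are secreted growth factors that act mainly through the tyrosine kinase receptor encoded by Igf1r. The product of Igf2r, the cation-independent mannose 6-phosphate receptor, takes IGF2 into the cell for breakdown, and the binding proteins carry the ligands and limit or direct their access to the receptor. Igf2 and H19 are reciprocally imprinted neighbours: in the mouse Igf2 is read from the paternal and H19 from the maternal chromosome, under shared enhancers. In the human adrenal gland, IGF2 is abundant before birth and is raised in cortical carcinoma.

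In the RefSeq annotation of the rat assembly GRCr8 no other annotated gene lies between H19 and Igf2 on chromosome 1, or between Igfbp2 and Igfbp5 on chromosome 9. H19 RNA is also the precursor of a microRNA, and another microRNA is encoded within Igf2. Their mature RefSeq sequences are given to show which small RNAs come from the 2 imprinted genes, with the seed (bases 2 to 8) in capitals. The seeds of the 4 differ, and the probe sets read the host transcripts, not these products.
rno-miR-675-5p, chr1:207161800-207161821, minus strand: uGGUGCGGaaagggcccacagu
rno-miR-675-3p, chr1:207161766-207161786, minus strand: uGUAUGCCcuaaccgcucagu
rno-miR-483-5p, chr1:207247903-207247924, minus strand: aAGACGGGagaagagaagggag
rno-miR-483-3p, chr1:207247865-207247886, minus strand: cACUCCUCcccucccgucuugu

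Each probe set has a linear intensity in arbitrary units, which the authors had scaled: the mean after trimming 2% at each end is 500.1 on all 8 arrays. Array medians ran from 228.6 to 249.2. As a measure of background, the controls for bacterial transcripts had intensities with median 5.4 and 95th percentile 46.6. Markers of the labelled gland were present: the 8 tested markers of the steroid-making cortex summed to between 89169.6 and 131670.7 in hypoxic and between 89738.8 and 122991.6 in normoxic pools, and the 10 chromaffin markers to between 43358.5 and 59294.9 in hypoxic and between 36891.4 and 49016.4 in normoxic pools. All 10 chromaffin markers had a log2 difference (hypoxic minus normoxic) above 0, beside 45.2% of all tested probe sets, and their median was 0.30. Of the 10, 6 were higher at an unadjusted p under 0.05, beside 4.47% of all tested named genes. Slc18a2, the vesicular monoamine transporter gene, passed on 1 of its 2 probe sets (limma, adjusted p = 0.0318, and 0.399 on the other). The mean log2 level of the chromaffin markers was 11.63, 11.73, 11.85 and 11.98 in hypoxic pools and 11.27, 11.6, 11.62 and 11.35 in normoxic pools. The groups thus did not overlap, as held for 2.76% of single tested probe sets in this direction. For testing, 16 was added and log2 was taken, and 11106 probe sets above a mean signal of 95.2 were kept. Of the 19 member probe sets 15 passed this filter, so each of the 10 genes had at least 1 tested probe set. In bulk pools, fewer cells of a type and less RNA per cell cannot be told apart.

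No member passed the test between hypoxic and normoxic glands. Of the 15 tested probe sets, 0 had an adjusted p under 0.05 in limma, where 0.18% of all tested probe sets did (0.117% higher and 0.063% lower in hypoxic glands). Their adjusted p ran from 0.214 to 0.989. An unadjusted p under 0.05 was found for 2 of 15, Igf1r and a probe set of Igfbp3, both higher in hypoxic glands, beside 8.64% of all probe sets (4.16% higher and 4.48% lower). The log2 difference was above 0 for 7 of the 15 and for 45.2% of all probe sets, and no member had all hypoxic pools below all normoxic pools, as 2.64% of all probe sets did. The median log2 difference (hypoxic minus normoxic) of the 15 was -0.03, and that of all tested probe sets was -0.02. H19, Igf2, Igf1, Igfbp5 and Igfbp6 differed up to severalfold between pools of the same group. Some markers of mesenchyme and fat, such as Postn and Fabp4, did so too, while other mesenchyme markers such as Dcn and Thy1 did not. Igf1r and Igfbp2 were also steadier.

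**Figure D1:**
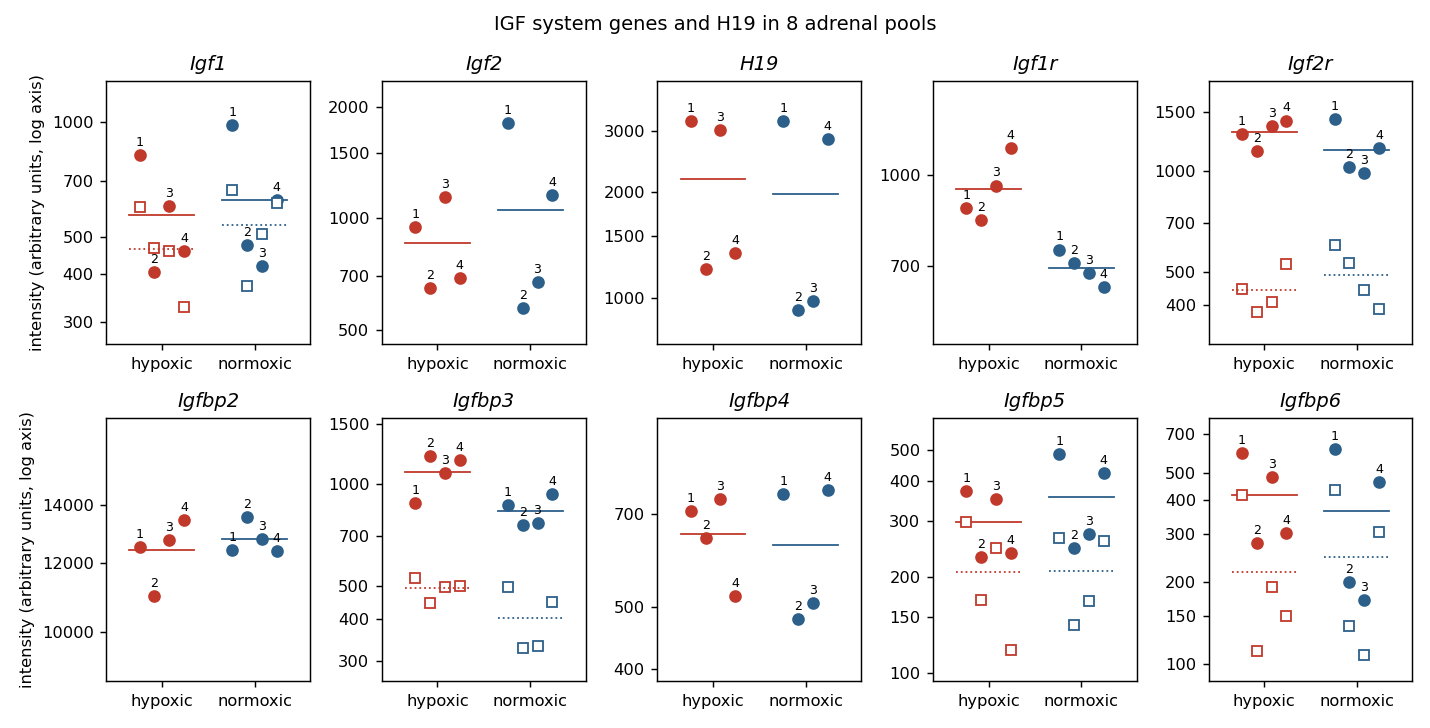
Intensity of the 10 genes in each pool (arbitrary units, log axis), hypoxic pools in red and normoxic pools in blue. Numbers are pool numbers, filled circles are the brighter and open squares the dimmer tested probe set, and solid and dotted lines are their group means. For H19, hypoxic pools 1 and 3 and normoxic pools 1 and 4 lie between 2836.3 and 3193.7 and the other pools between 923.1 and 1347, while for Igf1r all 4 hypoxic pools lie above all 4 normoxic pools.

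Among the receptors, Igf1r (probe set 1368123_at) measured 879.9, 838.3, 960.1 and 1113.7 in hypoxic pools 1 to 4, against 746.5, 706.6, 681.8 and 643 in normoxic pools 1 to 4. The groups did not overlap, as in 2.76% of all tested probe sets for this direction, and Igf1r was the 1 member probe set of 15 for which this held. The means were 948 ± 121 in hypoxic and 694 ± 43.5 in normoxic glands (SD, n = 4 pools each). The log2 difference was 0.43 with a standard error of 0.11 and a 95% interval from 0.20 to 0.67. Its unadjusted p was 0.00185 and its adjusted p over all probe sets 0.214 (limma), so Igf1r did not pass. With single pools left out the log2 difference stayed between 0.36 and 0.49. The mean log2 level of the chromaffin markers separated the same pools only narrowly, with 11.63 in hypoxic pool 1 and 11.62 in normoxic pool 3. The summed intensity of these markers overlapped between groups. Hypoxic pool 4 was the highest of all pools for both Igf1r and this mean. Normoxic pool 1 was the highest normoxic pool for Igf1r (746.5) and the lowest for the mean (11.27). The median log2 difference of the chromaffin markers was 0.30 and all 10 were above 0, beside 45.2% of all tested probe sets. The part of chromaffin cells in the level of Igf1r was not tested.

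Igf2r, whose product clears IGF2 and sorts lysosomal enzymes, had 2 tested probe sets that differed in sign. On the brighter one (1386872_at) it measured 1289.2, 1149.9, 1364.8 and 1416.7 in hypoxic pools and 1428.6, 1030.9, 987.1 and 1176.4 in normoxic pools. The log2 difference was 0.18 with an interval from -0.09 to 0.46 (limma, adjusted p = 0.732). The other probe set (1367636_at) had a log2 difference of -0.14 with an interval from -0.47 to 0.19 (adjusted p = 0.855). On both probe sets normoxic pool 1 was the highest pool of all 8 and the groups overlapped.

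Igfbp3 encodes the main carrier of IGFs in the blood and is also made in tissues. Its brighter probe set (1367652_at) measured 876.2, 1205.5, 1078.6 and 1173.3 in hypoxic pools, against 865.8, 754.3, 765.8 and 933.7 in normoxic pools. Hypoxic pool 1 lay within the normoxic range and the other hypoxic pools above it. The means were 1083 ± 148 in hypoxic and 830 ± 85.4 in normoxic glands (SD, 4 pools each), and the log2 difference was 0.37, with an interval from 0.11 to 0.64, an unadjusted p of 0.0095 and an adjusted p of 0.371 (limma). The dimmer probe set (1386881_at) measured 528.7, 445.5, 495.9 and 498.4 in hypoxic and 495.9, 327.4, 331.6 and 446.9 in normoxic pools, a log2 difference of 0.31 with an interval from -0.01 to 0.62 (adjusted p = 0.59). Both probe sets of Igfbp3 were thus above 0 with overlapping groups, and neither passed.

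Igfbp2, a carrier that binds both ligands, was the steadiest member. It measured 12522.5, 10993.1, 12775.9 and 13438.8 in hypoxic pools, against 12445.1, 13563.2, 12807.7 and 12395.8 in normoxic pools. The log2 difference was -0.05 with an interval from -0.24 to 0.15 (limma, adjusted p = 0.929). Its highest pool was 1.22 times its lowest in the hypoxic group and 1.09 times in the normoxic group. Its sign turned without hypoxic pool 2, to 0.01. 

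The ligands did not differ detectably between groups. Igf2 was read by 1 tested probe set (1367571_a_at), which measured 945.9, 651, 1139.7 and 691.4 in hypoxic pools and 1805, 572.7, 673.6 and 1154.1 in normoxic pools. The log2 difference was -0.18 with an interval from -0.85 to 0.49 (limma, adjusted p = 0.907), and it turned to 0.125 without normoxic pool 1. Pools of the same group were far apart, the highest being 3.15 times the lowest in normoxic and 1.75 times in hypoxic glands. The remaining 3 Igf2 probe sets read between 2.7 and 20.4 in hypoxic and between 6.5 and 29.4 in normoxic pools, the level of the bacterial controls, and were not tested.

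Igf1, the growth factor that mediates much of the action of growth hormone, had 2 tested probe sets. The brighter one (1370333_a_at) measured 818.7, 404.8, 605.3 and 460.5 in hypoxic pools, against 986.1, 476.7, 420.6 and 627.4 in normoxic pools, a log2 difference of -0.10 with an interval from -0.67 to 0.46 (limma, adjusted p = 0.948). Its sign turned without normoxic pool 1, to 0.135, and without hypoxic pool 2, to 0.04. The dimmer probe set (1388469_at) differed by -0.21 with an interval from -0.64 to 0.22 (adjusted p = 0.828). The groups overlapped on both.

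H19, the maternally expressed long non-coding RNA (1371298_at), took 2 separate levels in each group. It measured 3185.2, 1213.3, 3015.1 and 1347 in hypoxic pools and 3193.7, 923.1, 979.5 and 2836.3 in normoxic pools. Hypoxic pools 1 and 3 and normoxic pools 1 and 4 were high, and the other pools of each group low, with no value between 1347 and 2836.3. The means of 2190 ± 1054 and 1983 ± 1201 (hypoxic and normoxic, SD, n = 4 pools each) gave a log2 difference of 0.23 with an interval from -0.72 to 1.18 (limma, adjusted p = 0.919). Without normoxic pool 2 the difference was -0.06, without normoxic pool 3 it was -0.03, and without normoxic pool 1 it was 0.53.

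The remaining binding protein genes had group differences near 0 or with wide intervals. Igfbp6, whose product prefers IGF2 over IGF1, measured 595.5, 277.7, 484.5 and 302.4 in hypoxic pools and 615.7, 199.2, 171.7 and 464.1 in normoxic pools on its brighter probe set (1372168_s_at), a log2 difference of 0.31 (interval -0.50 to 1.11, adjusted p = 0.867). On the other probe set (1387625_at) the difference was -0.14 (interval -1.07 to 0.80, adjusted p = 0.962). As for H19, hypoxic pools 1 and 3 and normoxic pools 1 and 4 were the 4 highest on both probe sets. On the dimmer one, however, hypoxic pool 3 (191) was nearer to pools 2 and 4 (111.3 and 149.3) than to pool 1 (415.9). Igfbp5, which also binds extracellular matrix, measured 371.4, 230.8, 350.5 and 237.9 in hypoxic and 484.8, 247.1, 272.8 and 424 in normoxic pools (1370960_at), a log2 difference of -0.23 (interval -0.72 to 0.26, adjusted p = 0.836). The dimmer tested probe set of Igfbp5 differed by -0.03 (interval -0.62 to 0.55). Another, between 8.1 and 11.5 in hypoxic and between 6.8 and 10.7 in normoxic pools, was at the bacterial level and not tested. Igfbp4, an inhibitor of IGF action that the protease PAPP-A cleaves, measured 706.7, 641.5, 738.5 and 520 in hypoxic and 751.9, 478.2, 507.8 and 763.4 in normoxic pools, a log2 difference of 0.08 (interval -0.29 to 0.45, adjusted p = 0.937). Its sign turned without normoxic pool 2 (-0.04) or 3 (-0.01).

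**Figure D2:**
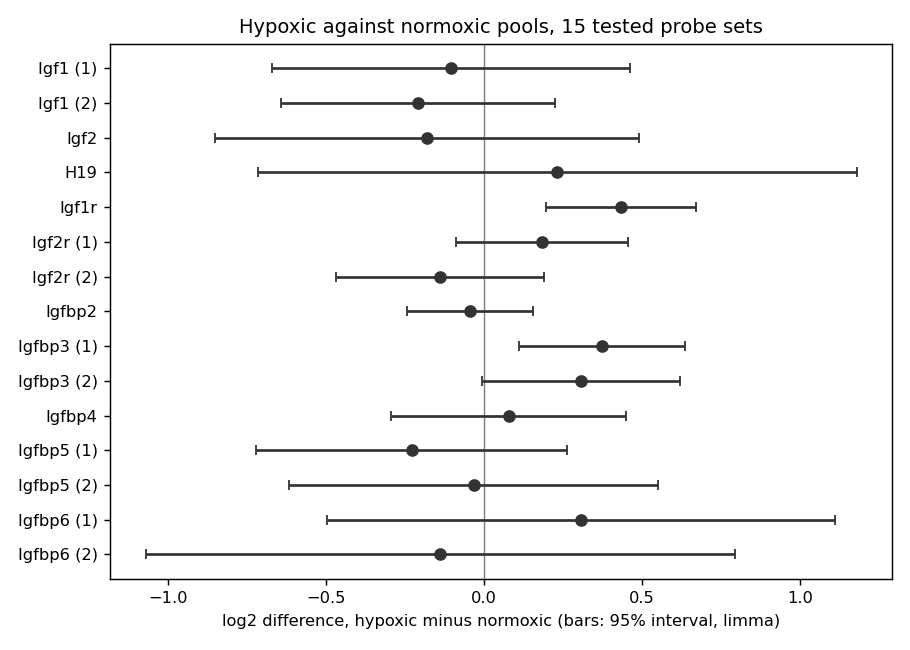
Log2 difference of hypoxic minus normoxic pools for the 15 tested probe sets (points) with 95% intervals from limma (bars), where (1) is the brighter and (2) the dimmer probe set of a gene. The intervals of Igf1r (0.20 to 0.67) and of the brighter Igfbp3 probe set (0.11 to 0.64) lie above 0, the other 13 include 0, and those of H19 and Igfbp6 are the widest.

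The spread between pools of a group differed widely among the members. It was measured as the residual SD on the log2 scale after the group means were removed, and over all 11106 tested probe sets its median was 0.193 and its 90th percentile 0.353. H19 had a residual SD of 0.851, at the 99.6th percentile, the probe sets of Igfbp6 had 0.706 and 0.821, Igf2 0.589, Igf1 0.487 and 0.352, and Igfbp5 0.402 and 0.484. Igfbp2 at 0.0969 (percentile 6.8), Igf1r at 0.14 (percentile 23.7) and the brighter Igfbp3 probe set at 0.177 (percentile 42.7) were steadier than the median probe set. Between pools of one group the highest H19 value was 2.63 times the lowest in hypoxic and 3.46 times in normoxic glands, and for the dimmer Igfbp6 probe set 3.74 times and 4.03 times.

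The members with a wide spread were mostly high in the same pools. The 4 highest of the 8 pools for H19 were hypoxic pools 1 and 3 and normoxic pools 1 and 4. The same 4 pools were the highest for 7 of the other 14 tested member probe sets, namely those of Igf2 and Igfbp4, the brighter one of Igf1, and both of Igfbp5 and of Igfbp6. Over all tested probe sets this held for 317 of 11106, or 2.85%. Probe sets of 1 gene share its transcript, so the 7 stand for 5 genes. It did not hold for Igf1r, Igf2r, Igfbp2 or Igfbp3, nor for the dimmer Igf1 probe set, where hypoxic pool 2 (469.7) was above hypoxic pool 3 (459.6).

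Some markers of other cells followed the same order of pools. The labels give the glands as decapsulated. Of 22 listed capsule and mesenchyme markers 19 passed the filter on signal, among them the collagen genes Col1a1, Col1a2 and Col3a1, the proteoglycan gene Lum and the matrix gene Postn. Their summed intensity was 34800, 21462.9, 27811.3 and 23022.7 in hypoxic pools and 34549.4, 18415.1, 19129.3 and 30317.5 in normoxic pools. The 4 pools highest for H19 were also the 4 highest for this list, and for 10 of its 19 genes at their brightest probe set, beside 2.85% of all tested probe sets. The order did not hold for Pdgfrb, Dcn, Tcf21, Nr2f2, Wt1, Acta2, Tagln, Thy1 and Fap. Thy1, for example, was highest in hypoxic pool 4 (1448.2) and normoxic pool 2 (1393.5). Col1a1, the main fibrillar collagen gene, measured 4430.1, 2542.9, 3879.7 and 2535.4 in hypoxic and 4463.2, 1818.9, 1642.4 and 3903 in normoxic pools. The remaining 3 were not tested: Nr2f1 was below the filter and Gli1 and Rspo3 had no probe set with their symbol alone. The list did not differ detectably between groups: 0 of 19 passed in limma, 10 were above and 9 below 0, and the median log2 difference was 0.03.

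Adipose markers mostly shared this order as well. Their 9 tested genes summed to 9947.1, 4761.5, 11352.6 and 6614.7 in hypoxic pools and to 14978.2, 5714.3, 6694.2 and 13454 in normoxic pools. Of the 9, 7 had the same 4 highest pools as H19, beside 2.85% of all tested probe sets. The order did not hold for Ucp1 and Lipe, and Lipe was lowest in hypoxic pool 1 (408.8). Fabp4, a fatty acid binding protein of fat cells, measured 4417.8, 1037.4, 4756.1 and 2064.3 in hypoxic and 5088, 1550.8, 1911.9 and 4602.3 in normoxic pools. Of the 12 listed, Lep was at background (between 4.9 and 8.8 in hypoxic and between 12.7 and 15.2 in normoxic pools), and Adipoq and Retn had no probe set with their symbol alone. All 9 tested adipose markers had a log2 difference below 0, where 45.2% of all tested probe sets were above 0, and 0 passed. The largest difference was that of Ucp1, at 337 ± 176 in hypoxic and 1066 ± 789 in normoxic glands (SD, 4 pools each). Its log2 difference was -1.46 (limma, unadjusted p = 0.0258, adjusted p = 0.502). The same 4 pools were highest for 0 of the tested probe sets of the other marker lists. These held 10 probe sets of cortex, 12 of chromaffin, 12 of endothelial, 9 of leukocyte, 4 of erythroid and 5 of liver or kidney markers. Over all tested probe sets the share was 2.85%, at which lists this short would hold few or none, so the 0 does not set them apart. The 5' over 3' ratio of the beta-actin control probe sets, a sign of RNA integrity, was 0.249, 0.491, 0.713 and 0.528 in hypoxic and 0.413, 0.597, 0.744 and 0.674 in normoxic pools. Its 4 highest pools were not those of H19. It was lowest of each group in hypoxic pool 1 and normoxic pool 1, both high for H19. Hypoxic pool 3 and normoxic pool 4, also high for H19, had 0.713 and 0.674. The part of RNA integrity in the order of pools was not tested. With this ratio in the fit the log2 difference of H19 was 0.01, against 0.23 without it, that of the brighter Igfbp6 probe set 0.07 against 0.31, of the dimmer one -0.53 against -0.14, and of the brighter Igf1 probe set -0.33 against -0.10, and 0 of 15 passed. Igf1r had 0.45 with the ratio and 0.43 without it. The same ratio for Gapdh was lowest of each group in other pools, hypoxic pool 3 (0.556) and normoxic pool 2 (0.587). With the Gapdh ratio in the fit instead, H19 had 0.15, the brighter and dimmer Igfbp6 probe sets 0.21 and -0.19, the brighter Igf1 probe set -0.20 and Igf1r 0.44.

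**Figure D3:**
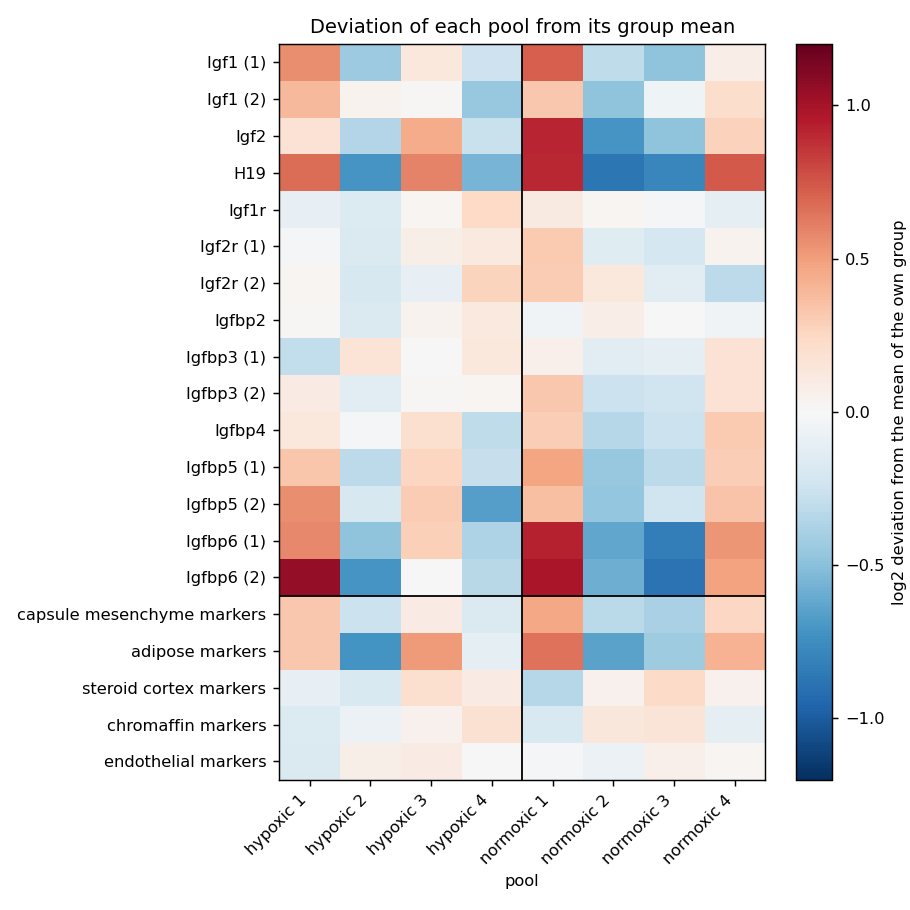
Log2 deviation of each pool (columns) from the mean of its own group for the 15 tested member probe sets and for the mean of 5 marker lists (rows). Hypoxic pools 1 and 3 and normoxic pools 1 and 4 are above their group mean (red) and the other pools below it (blue) for H19, Igf2, Igfbp5, the brighter Igf1 and Igfbp6 probe sets and the mesenchyme and adipose markers, while Igf1r stays between -0.166 and 0.237.

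When the mean log2 level of the mesenchyme markers was added to the fit, a setting chosen after the data were seen, the residual SD of H19 was 0.241 with it, against 0.851 without it. Igf2 had 0.239 with it and 0.589 without, the brighter Igfbp6 probe set 0.0648 and 0.706, the brighter Igfbp5 probe set 0.108 and 0.402, and the brighter Igf1 probe set 0.161 and 0.487. The median over all tested probe sets was 0.184 with it and 0.193 without. The dimmer Igfbp3 probe set had 0.0727 and 0.218, and Igf1r 0.153 and 0.14. The group differences moved little with it: H19 had a log2 difference of 0.24 (limma, adjusted p = 0.63), the brighter Igfbp6 probe set 0.31 (0.352), Igf2 -0.17 (0.749), Igf1r 0.43 (0.19) and the brighter Igfbp3 probe set 0.37 (0.345), and 0 of 15 member probe sets passed. With the mean of the adipose markers instead, the residual SD was 0.27 for H19, 0.233 for Igf2, 0.301 for the brighter Igfbp6, 0.134 for the brighter Igfbp5 and 0.268 for the brighter Igf1 probe set, so the lower spread was not particular to the mesenchyme markers. The tested adipose markers all had a log2 difference below 0 themselves, so their mean was not independent of group. With that mean in the fit the log2 difference of H19 was 0.77 (limma, adjusted p = 0.148) and that of the brighter Igfbp6 probe set 0.74 (0.223), and again 0 of 15 passed. The part of other cells in these levels was not tested further.

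**Figure D4:**
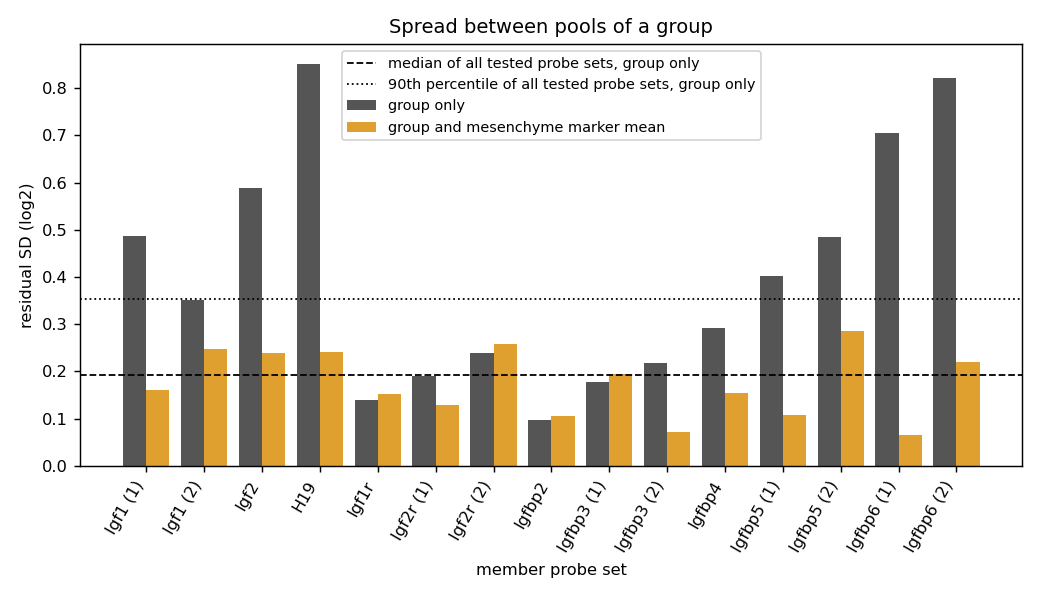
Residual SD on the log2 scale between pools of a group for the 15 tested member probe sets, with the group means alone (grey bars) and with the mesenchyme marker mean added to the fit (orange bars). The dashed line is the median (0.193) and the dotted line the 90th percentile (0.353) of all tested probe sets with group means alone. The grey bar of H19 reaches 0.851 and its orange bar 0.241.

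The genes whose deviations from the group means were most like those of a member were listed by Pearson's r over the 8 pools, as a description with no test. Since H19 took 2 levels, its r mostly reflects which pools were high. For H19 they were Igfbp5 (0.994), the annexin gene Anxa3 (0.991), the sulfotransferase gene Sult1a1 (0.991), the adipokine gene Rarres2 (0.982) and Col1a1 (0.98). For Igf2 they were the Wnt receptor gene Fzd2 (0.975), Trio (0.972), the ceramide kinase gene Cerk (0.967), the acyl-CoA binding protein gene Dbi (0.966) and Ecrg4 (0.965), and its r with H19 was 0.935. For Igf1r they were Flii (0.971), Prep (0.966), Tns1 (0.964), Ndufa3 (0.962) and Tsc22d4 (0.954). For Igfbp3 they were Exosc5 (0.979), Clpb (0.977), Capn1 (0.969), Epb41l1 (0.961) and Iqsec1 (0.961).

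The genes around the members showed no change that passed. Of 135 entries in lists of IGF signalling, IGF carriers with proteases and RNA-binding proteins, the growth hormone axis and imprinted genes, 75 were tested, for 73 distinct genes, and 0 had an adjusted p under 0.05 in limma, while 9 entries (12%) had an unadjusted p under 0.05, beside 8.56% of all tested named genes. Among 32 genes of IGF signalling, 1 was higher and 3 were lower at an unadjusted p under 0.05, beside 4.47% higher and 4.09% lower of all 8011 tested named genes. Their median log2 difference was 0.01, and that of all named genes was -0.01. Grb14, an adaptor that restrains insulin receptor signalling, measured 783 ± 18.3 in hypoxic and 989 ± 82 in normoxic glands (SD, 4 pools per group), and its log2 difference was -0.33 (limma, adjusted p = 0.279). The kinase gene Akt2 had a log2 difference of -0.34 (adjusted p = 0.395) at its brightest of 3 probe sets and -0.63 on each of the other 2 (adjusted p = 0.547 and 0.662). Pik3r2, a regulatory subunit of phosphoinositide 3-kinase, differed by -0.33 (adjusted p = 0.511) and -0.45 (0.668) on its probe sets. Map2k1, the kinase above ERK, differed by 0.22 (adjusted p = 0.509).

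Among 9 genes of IGF carriers, proteases and RNA-binding proteins, 0 were higher and 1 was lower at an unadjusted p under 0.05 (11.1% of 9, against 4.09% of all named genes), with a median of -0.10. This was Adam9, a membrane protease, at 103 ± 24.4 in hypoxic and 187 ± 96.1 in normoxic glands (log2 -0.67, adjusted p = 0.551). Igfbp7, a related matrix protein of low affinity for IGFs, had a log2 difference of -0.28 (adjusted p = 0.59), the lysosomal protease gene Ctsd 0.20 (0.816) and the serine protease gene Htra1 -0.10 (0.844). Igfbp1, a binding protein made mainly in the liver, was below the filter, between 17.1 and 86.3 in hypoxic and between 19.1 and 61.6 in normoxic pools. Igfals, the acid-labile subunit of the circulating complex, was at background, between 4 and 8.6 in hypoxic and between 4.9 and 6.2 in normoxic pools. Of 7 genes of the growth hormone axis 0 had an unadjusted p under 0.05, and the lowest p values were those of Socs2, a target of growth hormone (log2 -0.30, adjusted p = 0.711), and of the transcription factor genes Stat5a (-0.21, 0.797), Cebpb (-0.14, 0.859) and Stat5b (-0.16, 0.929).

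Of 27 tested genes that are imprinted in the mouse or other mammals, 3 were higher and 1 lower at an unadjusted p under 0.05 (11.1% and 3.7%, against 4.47% and 4.09% of all named genes), with a median of 0.04. Nnat, the neuronatin gene, measured 3188 ± 254 in hypoxic and 2281 ± 408 in normoxic glands (SD, 4 pools per group), and its log2 difference was 0.49 (limma, adjusted p = 0.211). Ddc, the decarboxylase of catecholamine synthesis, which is imprinted in some mouse tissues, differed by 0.36 (adjusted p = 0.232) on its brighter and by -0.06 (0.971) on its dimmer probe set. Ddc is also one of the 10 chromaffin markers, all of which had a difference above 0 (median 0.30), beside 45.2% of all tested probe sets. Nnat is not one of these markers. Within each group it was highest in pool 1 (3477.6 in hypoxic and 2843.6 in normoxic glands), where the chromaffin marker mean was lowest (11.63 and 11.27). The part of chromaffin cells in the values of Ddc and Nnat was not tested. The transporter gene Slc22a18 differed by 0.29 (adjusted p = 0.576), and the ubiquitin ligase gene Ube3a by -0.64 (0.503). Of the 37 tested probe sets of this list, 2 had the same 4 highest pools as H19.

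**Figure D5:**
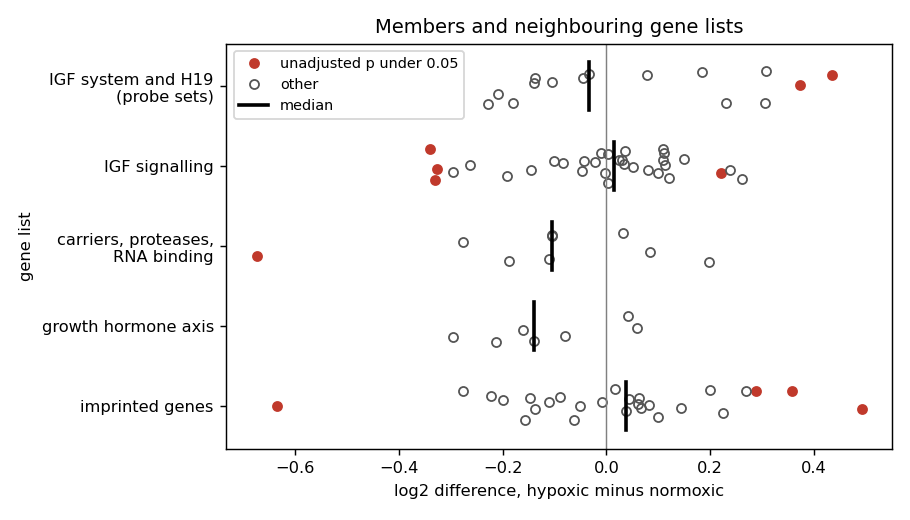
Log2 difference of hypoxic minus normoxic pools for the 15 member probe sets and for each tested gene of 4 lists (rows), with the median of a row as a black line and red points at an unadjusted p under 0.05 (limma). Medians lie between -0.14 and 0.04, and 0 points passed an adjusted p of 0.05.

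The RefSeq promoter table (GRCr8, from 250 bases before to 50 bases after a start) held 10 entries for 9 members, with 2 for Igf2 and none for H19. They were searched on both strands for ACGTG and GCGTG, the core of the element bound by hypoxia-inducible factors. A match was found in 5 of 10 entries, those of Igf1r, Igf2r, Igfbp2, Igfbp3 and 1 of Igf2, and in 41.6% of 33469 promoters of the table. Igf1r had 6 matches, of which 2 are the overlapping strands of a palindrome 31 bases before the start, and the GC content of its window was 78%. Igfbp3 had 2 matches, 171 and 71 bases before the start. Igf2r and Igfbp2, which had no unadjusted p under 0.05, had 4 matches each, with palindromes counted on both strands. The matching entry of Igf2 had 2. Igf1, Igfbp4, Igfbp5 and Igfbp6 had 0 matches in these windows. A match is a run of letters and not a shown binding site. The promoters of the 2 genes with an unadjusted p under 0.05 and of Igfbp6, which had 0 matches and followed the order of pools of H19, are printed with matches in capitals.
Igf1r promoter, chr1:130959747-130960046, plus strand: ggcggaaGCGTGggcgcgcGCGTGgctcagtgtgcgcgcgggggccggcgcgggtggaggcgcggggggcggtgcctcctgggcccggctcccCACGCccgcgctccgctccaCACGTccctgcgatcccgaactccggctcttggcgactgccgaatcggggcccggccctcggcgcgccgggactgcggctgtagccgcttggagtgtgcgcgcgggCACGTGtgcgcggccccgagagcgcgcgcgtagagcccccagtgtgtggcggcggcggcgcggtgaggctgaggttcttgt
Igfbp3 promoter, chr14:86277895-86278194, minus strand: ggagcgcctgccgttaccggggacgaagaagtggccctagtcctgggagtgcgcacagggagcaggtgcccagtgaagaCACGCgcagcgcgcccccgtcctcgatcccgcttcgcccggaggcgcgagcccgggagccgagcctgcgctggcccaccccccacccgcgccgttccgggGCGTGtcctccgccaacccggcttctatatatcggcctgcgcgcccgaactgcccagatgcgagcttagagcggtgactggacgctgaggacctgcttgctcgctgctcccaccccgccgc
Igfbp6 promoter, chr7:135154669-135154968, plus strand: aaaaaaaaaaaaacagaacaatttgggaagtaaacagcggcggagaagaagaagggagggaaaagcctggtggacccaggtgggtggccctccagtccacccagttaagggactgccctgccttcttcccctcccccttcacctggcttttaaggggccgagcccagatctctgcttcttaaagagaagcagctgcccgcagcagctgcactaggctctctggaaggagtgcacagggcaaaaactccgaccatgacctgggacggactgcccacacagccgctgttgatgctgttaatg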

How the data were processed

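Biotin-labelled cRNA from 4 hypoxic and 4 normoxic pools was read on 1-colour arrays, per the labels. The deposited table holds linear probe set intensity values. The summarising software and genome build are not given in the sources used here. Trimmed means are equal across arrays, so the authors' intensity values were already scaled and a shift of most transcripts together would be hidden. Groups came from sample titles. The table gave no detection calls.

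Control probe sets (57) were left out, and 12783 of 15866 others had 1 gene symbol in the platform annotation, which can be old. A floor of 1 and an offset of 16 were applied before log2; array medians differed by 0.117 at most, so no further normalization was done. Probe sets with a mean below the 30th percentile were left out. Fold changes on this scale understate those of dim probe sets. Hypoxic was compared with normoxic in limma 3.58.1 (R 4.3.3; lmFit, eBayes with variance trend), two-sided, Benjamini-Hochberg adjusted over 11106 probe sets at 0.05. Listed genes were read at their brightest tested probe set.

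Members and lists were chosen with earlier results of these data known. Named were all members, up to 4 genes of lowest p per list and the 5 genes most like 4 members. The marker covariates were added after the data were seen. The alternatives were another offset (1, 64), filter, normalization, variance prior, averaged probe sets, replicate block, RNA integrity or marker covariates, and leaving out each pool. The fit was tested on simulated data. Same-numbered pools had deviations with r of 0.323, 0.0026, 0.186 and -0.0434, and differently numbered pools had r from -0.311 to 0.163. The highest values, 0.323 and 0.186, were thus those of same-numbered pools, while the others were near 0. These values do not settle whether same-numbered pools share something. The labels do not tie such pools together, so numbers were not taken as pairs and the block was kept as an alternative. Python 3.11.15, pandas 2.3.3, scipy 1.17.1 and matplotlib 3.10.9 were used for tables and plots.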

Additional observations from a re-analysis of the deposited data

Results flagged for a closer look

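Of the untested, dim probe sets of Igf2, 2 each had 1 pool far from the others of its group, among 38 groups of 4 examined by Dixon's test, of which chance gives about 1 in 20. Normoxic pool 2 read 29.4 on one (1388252_at), where the next normoxic pool read 8.3. Hypoxic pool 3 read 16.7 on another (1371206_a_at), where the next hypoxic pool read 8.3. All these values are within the range of the bacterial control probe sets.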

How the results depend on the processing

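The count of member probe sets past an adjusted p of 0.05 in limma was 0 under every alternative run, as was that of genes in the 4 lists around the members (marker lists not included). The count over all probe sets, 20, was 18 with the replicate number as a block (replicate block), 0 with no filter, with no variance trend or with a Gapdh integrity ratio (5' to 3') in the fit, 37 with the beta-actin ratio in it, 9 with the adipose marker mean, and between 0 and 31 with single pools left out (31 when hypoxic pool 1 was omitted, 2 for hypoxic pool 4, 1 for normoxic pool 4, and 0 for each of the others). The labels do not say what pools with the same number share. Igf1r and both Igfbp3 probe sets kept their direction in all 22 alternatives each, with adjusted p from 0.164 to 0.547, from 0.127 to 0.639 and from 0.263 to 0.817. With the adipose marker mean, log2 differences turned in sign for Igf1 (0.175, brighter probe set), Igf2 (0.18), Igfbp5 (0.0255 and 0.216) and Igfbp6 (0.33, dimmer probe set). The dimmer Igfbp5 probe set also turned with quantile normalization (0.037) and with a common median (0.00358), and averaging probe sets gave 0.022 for Igf2r and 0.0842 for Igfbp6, against -0.14 on the dimmer probe set of each. With single pools left out, log2 differences ran from -0.0569 to 0.534 for H19, from -0.289 to 0.135 for Igf1 (brighter), from -0.418 to 0.125 for Igf2, from -0.0839 to 0.0126 for Igfbp2, from -0.0371 to 0.182 for Igfbp4, from -0.218 to 0.188 for Igfbp5 (dimmer) and from -0.488 to 0.189 for Igfbp6 (dimmer). Without a change of sign they ran from 0.0308 (without normoxic pool 3) to 0.614 (normoxic pool 1) for Igfbp6 (brighter), from -0.378 (normoxic pool 2) to -0.0689 (normoxic pool 1) for Igfbp5 (brighter), from -0.369 (normoxic pool 2) to -0.0576 (hypoxic pool 4) for Igf1 (dimmer), and from -0.243 (normoxic pool 4) to -0.0374 (normoxic pool 1) for Igf2r (dimmer). Without a value at the 50th-percentile filter were the dimmer Igfbp5 and Igfbp6 probe sets. The cause of these changes was not tested. Signals under the bacterial 95th percentile of 46.6 limit the 4 untested probe sets.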
